A study of Mus musculus with 32 samples.

Results

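The genes described here encode the proteins of the cytosolic ribosome. They were taken as the protein-coding genes whose symbol starts with Rpl or Rps followed by a digit, together with Rpsa, Rplp0, Rplp1 and Rplp2, and pseudogenes, the Rps6k kinases and Rps19bp genes were left out. The annotation used here (GENCODE M21) holds 85 such genes, of which 33 belong to the small subunit, 49 to the large subunit and 3 to the acidic stalk. RNA of 82 of them was listed on chromatin in at least 1 library, among 17784 transcripts of all kinds and 14286 protein-coding transcripts. Rpl10l, Rpl36al and Rps27rt were not listed in any library.

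Chromatin contacts of RNA were measured by RADICL-seq, which joins RNA and nearby DNA with an adapter inside crosslinked nuclei and sequences a short tag of each. R08 is a male mouse embryonic stem cell (mESC) line, and Oli-neu is a line derived from mouse oligodendrocyte progenitor cells (mOPC). The 15 libraries fell into 6 groups, with replicates grown from cell batches of different passage numbers. mESC 1FA and mESC 2FA (3 libraries each) were untreated mESCs fixed with 1% and 2% formaldehyde. mESC ActD (2 libraries) received actinomycin D, an inhibitor of transcription elongation, at 5 µg/ml for 4 h before fixation with 1% formaldehyde. In mESC NPM (2 libraries) proteins were digested and crosslinks reversed before RNA ligation, which leaves contacts that do not need proteins. mOPC 1FA (3 libraries) and mOPC NPM (2 libraries) were the same preparations of untreated Oli-neu cells. Each of these lines stands for its cell type by a single cell line.

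Ribosomal protein genes are transcribed at high rates in growing cells, because every ribosome needs 1 copy of nearly all of the proteins. Their transcripts start with an oligopyrimidine tract at the 5′ end, through which translation of the whole set is adjusted to nutrient supply. Most of the genes are short with several introns, and many introns host small nucleolar RNAs (snoRNAs), which guide the modification of ribosomal RNA. Processed copies of their mRNAs are scattered over the mouse genome, so a short read from an exon often has several matches.

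The median gene span was 3289 bp, from 374 bp (Rps27rt) to 31449 bp (Rps14), and 67 of the 85 genes spanned under 5 kb. A total of 30 genes held an annotated snoRNA gene on their own strand, with 58 snoRNA genes in all. Rpl4 held 5 and Rpl13a held 4. The genes lay on 19 chromosomes.

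Pyrimidine runs lay near part of the start sites. They were counted anywhere in a window around the start, so they need not be the tract at the 5′ end of the transcript. In the windows from 10 bases before to 20 bases after the start site in the RefSeq promoter table (GRCm38.p6, the build named mm10), a run of at least 8 pyrimidines (C or T, on the strand of the gene) was found in 14 of the 52 members whose table start lay within 100 bases of the annotated start (26.9%). The same run was found in 3004 of 26960 windows of other genes (11.1%). For other genes the table entry with the lowest position was taken, without a check against the annotated start. Members and others were thus not chosen alike, and the part of this in the contrast was not tested. Runs of at least 10 pyrimidines were held by 23.1% of the members and 4.67% of the others, while purine runs of at least 8 were held by 1.92% and 13.2%. The 5 windows below are shown because they hold long runs, with the longest pyrimidine run in capitals. The table starts of Rpl27a, Rpl7a and Rps6 lay 48, 43 and 45 bases from the annotated starts, which fall outside these windows.

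Rpl27a (chr7:109519185-109519214, plus strand): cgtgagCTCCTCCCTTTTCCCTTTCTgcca

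Rpl7a (chr2:26910797-26910826, plus strand): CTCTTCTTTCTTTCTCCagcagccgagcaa

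Rpl13a (chr7:45128726-45128755, minus strand): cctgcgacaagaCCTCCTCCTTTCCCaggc

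Rps18 (chr17:33955646-33955675, minus strand): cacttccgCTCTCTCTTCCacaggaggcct

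Rps6 (chr4:86857348-86857377, minus strand): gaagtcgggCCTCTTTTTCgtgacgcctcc

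A second kind of sequence is shown because RNA tags piled up on it. For 4 genes the 30 bases around the 10 positions with the most tags are given, with the bases of an annotated snoRNA in capitals. The windows of Rpl12 and Rpl23 touch no annotated small RNA, and that of Rpl12 lies in the first intron of the principal transcript, in sequence the files list as coding. That of Rps12 begins with the last 10 bases of Snord100, and that of Rps13 lies whole within Snord14a.

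Rpl12 (chr2:32961891-32961920, plus strand): cttgggccttggctgccacgtgtgtaagag

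Rps12 (chr10:23785730-23785759, minus strand): CTGAAACAGCcaccctgggaatgttgaggg

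Rpl23 (chr11:97780137-97780166, minus strand): gtctccaatagtggggagagggatattctt

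Rps13 (chr7:116333172-116333201, minus strand): TTGGGTTGACCTTCCTTGGATGTCTGAGTG

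The files list interactions of those pairs of a transcript and a 25-kb genomic bin that passed the study's binomial test, which was run on pooled replicates. An interaction is 1 distinct pair of an RNA position and a DNA position. Libraries held 2441619 to 2832717 listed interactions in mESC 1FA, 2035499 to 2515347 in mESC 2FA, 251802 and 418781 in mESC ActD, and 434610 and 608994 in mESC NPM. The mOPC 1FA libraries held 1998951 to 2210765, and the mOPC NPM libraries 1190366 and 1272653. These totals count what passed the test and are not the sequencing depth, and read totals were not used here. A transcript listed at 0 may have had contacts that did not pass.

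Ribosomal protein genes gave 38320 interactions in all. The mESC 1FA libraries held 4639, 5615 and 6204 of them, and the mESC 2FA libraries 4247, 4009 and 4598. The mESC ActD libraries held 868 and 514, and the mESC NPM libraries 910 and 1558. The mOPC 1FA libraries held 927, 771 and 1317, and the mOPC NPM libraries 1127 and 1016. All 3 mOPC 1FA libraries lay far below the mESC 1FA libraries, although the library totals of both groups, given above, lay much closer.

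As a share of all listed interactions, the family made up 0.208% ± 0.0297 (SD, n = 3) in mESC 1FA, 0.190% ± 0.00708 (n = 3) in mESC 2FA, 0.206% ± 0.00222 (n = 2) in mESC ActD and 0.233% ± 0.0328 (n = 2) in mESC NPM. mOPC 1FA libraries gave it 0.0481% ± 0.0156 (n = 3), and mOPC NPM libraries 0.0870% ± 0.00227 (n = 2). Every mOPC library lay below every mESC library, and the range of each other mESC group overlapped that of mESC 1FA. Within mOPC 1FA, replicate 3 (0.0659%) lay above replicates 1 and 2 (0.0419% and 0.0366%). The proteins of the mitochondrial ribosome, a separate set of nuclear genes, made up 0.121% to 0.138% in mESC 1FA and 0.0670% to 0.0761% in mOPC 1FA. All libraries are bulk samples, in which fewer cells with an RNA and less RNA per cell cannot be told apart.

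The number of genes listed differed between groups. All 6 mESC 1FA and mESC 2FA libraries listed 80 of the genes. The mESC ActD libraries listed 60 and 59, both mESC NPM libraries 72, the mOPC 1FA libraries 63, 61 and 65, and both mOPC NPM libraries 63. In all 15 libraries 47 genes were listed, and 52 genes were listed in every group.

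Rps19, a small-subunit protein needed for maturation of the small subunit and mutated in Diamond-Blackfan anaemia, had the most interactions. Its mESC 1FA libraries held 355, 418 and 462, its mOPC 1FA libraries 47, 39 and 65. Rps15a, another small-subunit protein, came next with 250, 260 and 309 in mESC 1FA and 157, 141 and 148 in mOPC 1FA. Rpl12, which sits at the base of the stalk, had 268, 371 and 361 in mESC 1FA and 26, 27 and 64 in mOPC 1FA. The ranges of mESC 1FA and mOPC 1FA did not overlap for any of these 3 genes, and the gap was narrowest for Rps15a.

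By the sum over the mESC 1FA and mOPC 1FA libraries, Rpl3, Rpl38, Rpl26, Rpl7l1, Rpl22, Rps3 and Rps24 followed, with 753 down to 543 interactions. The 10 leading genes of each group held 41.3% of the family's interactions in mESC 1FA and 52.3% in mOPC 1FA. Rps15a alone held 14.8% in mOPC 1FA, whereas Rps19, the leading gene of mESC 1FA, held 7.50% there. In mESC ActD the leading gene was Rps14, with 5.35%.

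Compared per kb of gene span over the same 6 libraries, the order was Rpl12 (295 interactions per kb), Rps19 (255), Rpl38 (168), Rpl32 (134), Rpl31 (122), Rpl26 (113), Rps18 (109), Rps15a (107), Rpsa (101) and Rps3 (99.8). Rpsa is a small-subunit protein also known as the laminin receptor, and Rpl38 a large-subunit protein known for its part in translation of Hox mRNAs. The per-kb level of Rpl26 is uncertain, since 47.6% of its tags lay inside the span of its principal transcript and the rest in longer annotated forms. The same held for Rps28 (33.9%) and Rps14 (36.4%). Rpl13, Rpl13a, Rpl19, Rpl24 and Rps10 overlap another annotated gene on the same strand, so their counts are uncertain as well. Rpl24 was at the other end among genes listed in these libraries, with 1.36 interactions per kb and no interaction outside mESC 1FA.

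**Figure D1:**
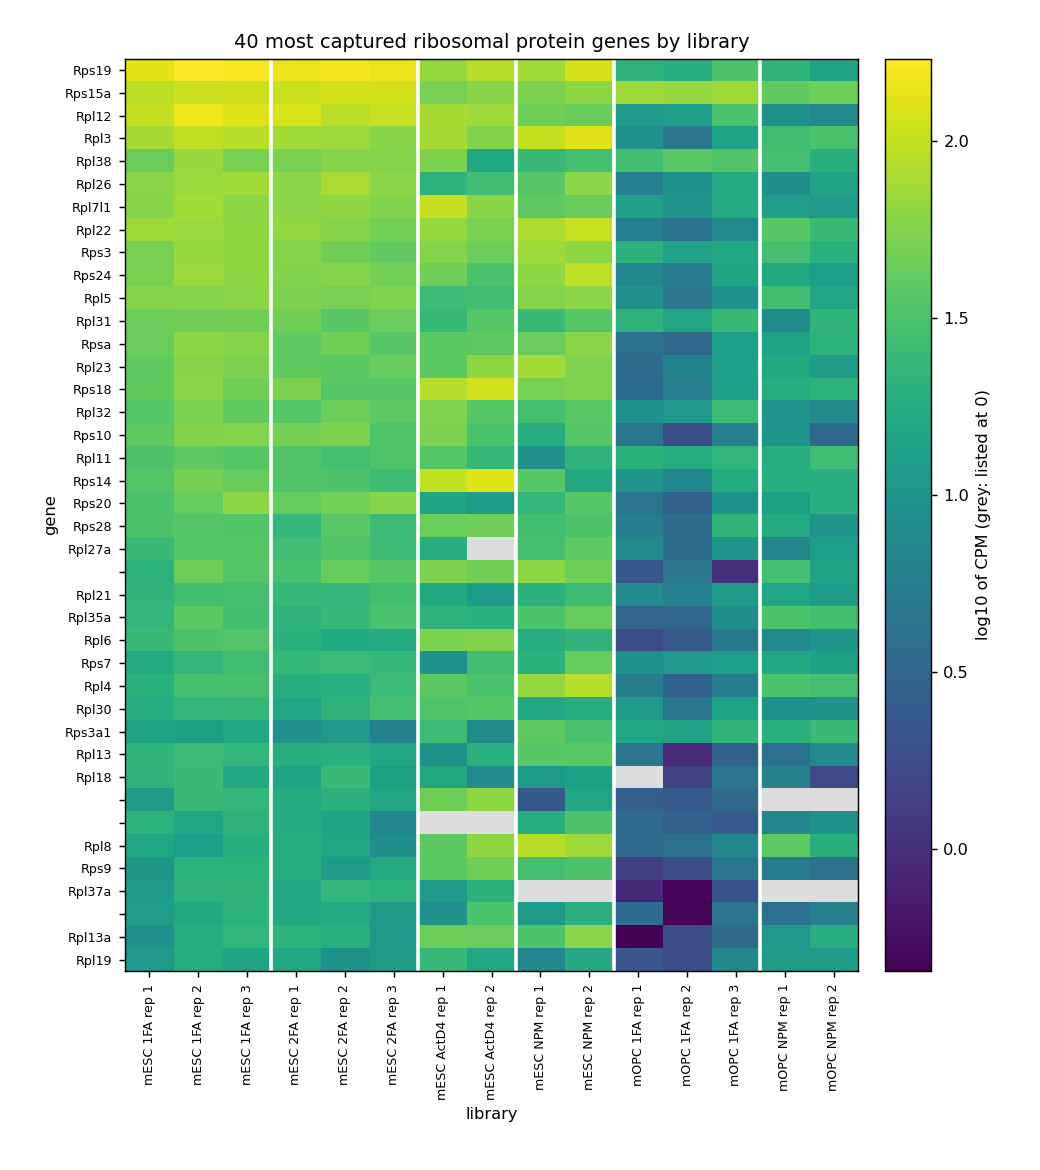
Interactions per 1000000 listed in the library, or CPM (colour, log10 scale), for the 40 ribosomal protein genes with the most interactions over mESC 1FA and mOPC 1FA (rows, labelled where described in the text) in each of the 15 libraries (columns). Grey marks a gene listed at 0, and the mOPC columns are darker than the mESC columns for most rows. For Rps15a the mOPC 1FA columns lie below those of mESC 1FA and above those of mESC ActD and mESC NPM.

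The 2 ribosomal subunits were captured in similar proportions in every group. Small-subunit genes gave 42.5% of the family's interactions in mESC 1FA, 42.7% in mESC 2FA, 40.7% in mESC ActD, 41.2% in mESC NPM, 46.5% in mOPC 1FA and 38.4% in mOPC NPM. Stalk genes gave between 0.507% (mESC ActD) and 1.68% (mOPC NPM). Of the stalk genes, Rplp0 had 6, 19 and 20 interactions in mESC 1FA and 5, 3 and 12 in mOPC 1FA, so its ranges overlapped. Rplp1 counted 9, 11 and 12 across mESC 1FA, 6, 2 and 5 across mESC 2FA, and was listed at 0 elsewhere. Rplp2 had 23, 46 and 27 in mESC 1FA and 3, 4 and 6 in mOPC 1FA.

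In mESC 1FA paralogs had fewer interactions than the genes they resemble, with Rpl7l1 as the exception. Rpl7l1, whose product acts in assembly of the large subunit, had 155, 185 and 172 interactions in mESC 1FA against 10, 26 and 34 for Rpl7. Per kb of span, Rpl7l1 had 68.1 interactions and Rpl7 23.8. Rpl22l1 was listed only in mESC 2FA, with 6, 11 and 10 interactions, whereas Rpl22 was listed in all groups. Rpl3l, known as the striated-muscle form of Rpl3, was listed only in mOPC NPM, with 4 and 5. Rpl39l, the testis-enriched form of Rpl39, was listed in the 3 mESC groups without actinomycin D and reached 6 and 11 in mESC NPM. Rps27l, a p53-induced relative of Rps27, had 2, 10 and 8 interactions in mESC 1FA and 3, 0 and 5 in mOPC 1FA. In mESC 1FA Rps27l rested on 2 listed bins and Rpl39l on 1.

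By the deposited region labels, introns and exons contributed about equally. In mESC 1FA 48.7% to 49.2% of the family's RNA tags were labelled intron, against 85.5% to 87.4% over all protein-coding genes. By the principal transcript alone, introns held 12934 of the 16458 interactions of mESC 1FA and exons 2043. Exonic tags and exon tags below are all tags without the intron label, and are not limited to mature mRNA. Tags called exon but neither coding nor UTR made up 25.6% to 25.9% in the family and 2.77% to 2.82% over all protein-coding genes. None of the 9705 tags of that class, summed over all libraries, lay in an exon of the principal transcript, so they came from exons of alternative transcripts, which are often retained introns. Tags in coding sequence made up 6.62% to 7.26% and tags in the 3′ UTR 13.1% to 13.9%. Members differed in length and intron content from the average gene, and the part of this in the contrast was not tested.

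With all its genes counted, the exonic share of the family was nearly the same in every group, whereas that of all protein-coding genes was not. The family held 51.1% ± 0.265 (n = 3) in mESC 1FA, 50.6% ± 0.703 (n = 3) in mESC 2FA, 50.5% ± 2.11 (n = 2) in mESC ActD and 52.6% ± 2.73 (n = 2) in mESC NPM. The mOPC values were 50.2% ± 2.30 (1FA, n = 3) and 53.3% ± 0.146 (NPM, n = 2). Without Rps15a the family's share was 51.1% to 51.9% in mESC 1FA and 46.7% to 50.8% in mOPC 1FA, which did not overlap. Over all protein-coding genes the share was 13.3% ± 1.09 in mESC 1FA, 22.1% ± 0.325 in mESC ActD and 31.4% ± 3.29 in mESC NPM. The mOPC values were 10.9% ± 0.663 (1FA) and 26.8% ± 4.07 (NPM).

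Within the exonic tags the regions differed between groups. The 5′ UTR share was 4.68% to 5.21% in mESC 1FA and 10.1% and 10.8% in mESC ActD, while the 3′ UTR share was 6.42% and 7.72% in mESC ActD. Over all protein-coding genes the 5′ UTR share was 1.08% to 1.45% in mESC 1FA and 3.49% and 3.56% in mESC ActD. In mOPC 1FA the family's 3′ UTR share was 19.2% to 21.7%, above all mESC libraries, and without Rps15a it was 13.3% to 15.3%, above the mESC 1FA libraries but overlapping mESC 2FA (13.5% to 14.9%). The ActD and 1FA groups named in these sentences did not overlap.

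**Figure D2:**
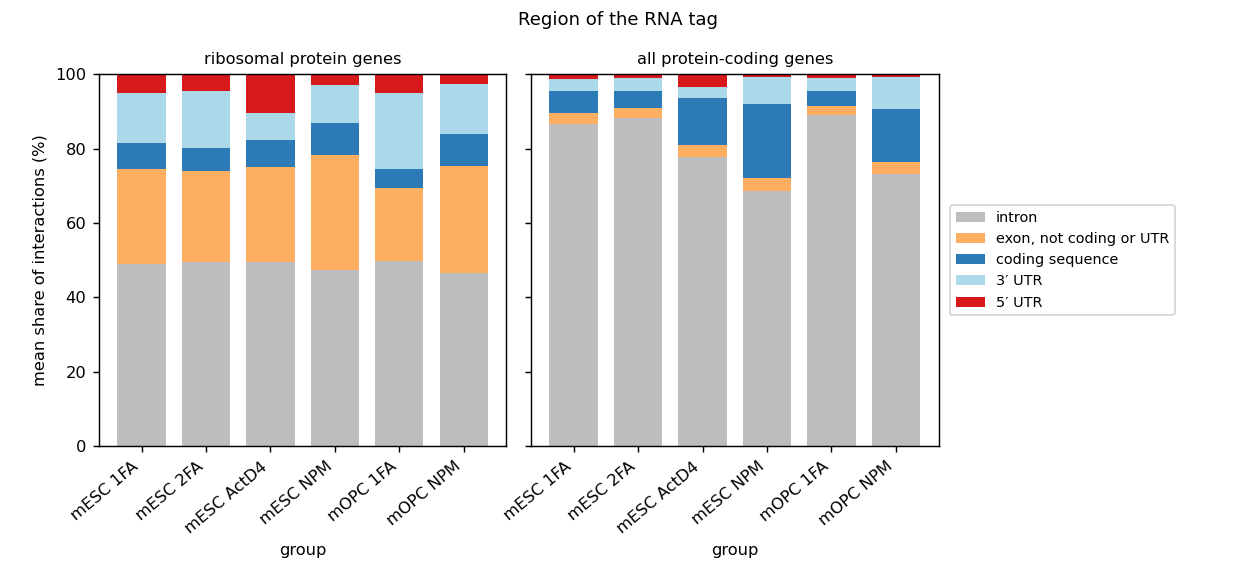
Mean share of interactions (%) by annotated region of the RNA tag, in each of the 6 groups, for ribosomal protein genes (left) and for all protein-coding genes (right). Tags labelled intron made up about 49% of the family's tags in mESC 1FA and over 85% of those of all protein-coding genes.

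Tags in exons of the principal mRNA, the mature form, were rarer. They made up 12.1% to 12.9% of the family's interactions in mESC 1FA, 10.5% and 11.4% in mESC ActD, and 15.8% to 21.8% in mOPC 1FA. The lowest mOPC 1FA library lay above the highest of mESC 1FA, but Rps15a gave 243 of the 564 such tags in mOPC 1FA. Without Rps15a the share over all libraries of a group was 11.4% in mESC 1FA and 12.5% in mOPC 1FA, and the libraries of the groups overlapped. Mapping limits these values, because a median of 43.0% of the mature sequence of a ribosomal protein gene consisted of 27-base windows found once in the genome, against 98.1% of its introns. For mitochondrial ribosomal protein genes the medians were 95.6% and 94.0%.

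Per kb of uniquely mappable sequence, mature exons carried 0.726 times as many tags as introns in mESC 1FA, 0.814 in mESC 2FA, 0.641 in mESC ActD and 0.752 in mESC NPM. The ratio was 1.23 in mOPC 1FA (1.04 to 1.45 over its libraries) and 1.00 in mOPC NPM (1.15 and 0.850), so these 2 groups overlapped. Without Rps15a it was 0.719 in mESC 1FA (0.680 to 0.760), 0.841 in mOPC 1FA (0.784 to 0.893) and 0.911 in mOPC NPM (1.08 and 0.741). For mitochondrial ribosomal protein genes it was 0.682 in mESC 1FA, 1.22 in mESC ActD, 1.65 in mESC NPM, 0.687 in mOPC 1FA and 1.77 in mOPC NPM. Groups of ratios were not tested.

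The DNA tags of the family lay close to the genes. In mESC 1FA 22.6% to 28.0% of its interactions fell within the gene of the RNA and a further 32.4% to 34.9% less than 25 kb away. Over all protein-coding genes those shares were 31.7% to 34.4% and 4.50% to 4.91%. Contacts over 1 Mb away on the same chromosome made up 0.0322% to 0.0534% of the family's interactions in mESC 1FA and 0.216% to 0.389% in mOPC 1FA. The corresponding shares of all protein-coding genes were 10.8% to 11.8% and 15.2% to 16.8%. The family's shares over 1 Mb rest on very few interactions per library, and its mOPC 1FA libraries held fewer interactions in all. The cell lines are therefore not compared on them. A short gene has little room for contacts within itself, and the part of gene length in these shares was not tested.

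Own-gene contacts took a larger share after actinomycin D and after protein digestion. They made up 51.2% ± 3.35 (n = 2) in mESC ActD, 97.4% ± 0.263 (n = 2) in mESC NPM and 99.3% ± 0.445 (n = 2) in mOPC NPM, against 26.2% ± 3.14 (n = 3) in mESC 1FA and 29.5% ± 4.73 (n = 3) in mOPC 1FA. The ActD and NPM libraries did not overlap with the 1FA libraries of the same cell line. mESC 2FA held 33.3% ± 5.82 (n = 3), with a range that overlapped that of mESC 1FA. All protein-coding genes moved the same way, to 60.6% ± 0.624 in mESC ActD and 96.0% ± 1.36 in mESC NPM.

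**Figure D3:**
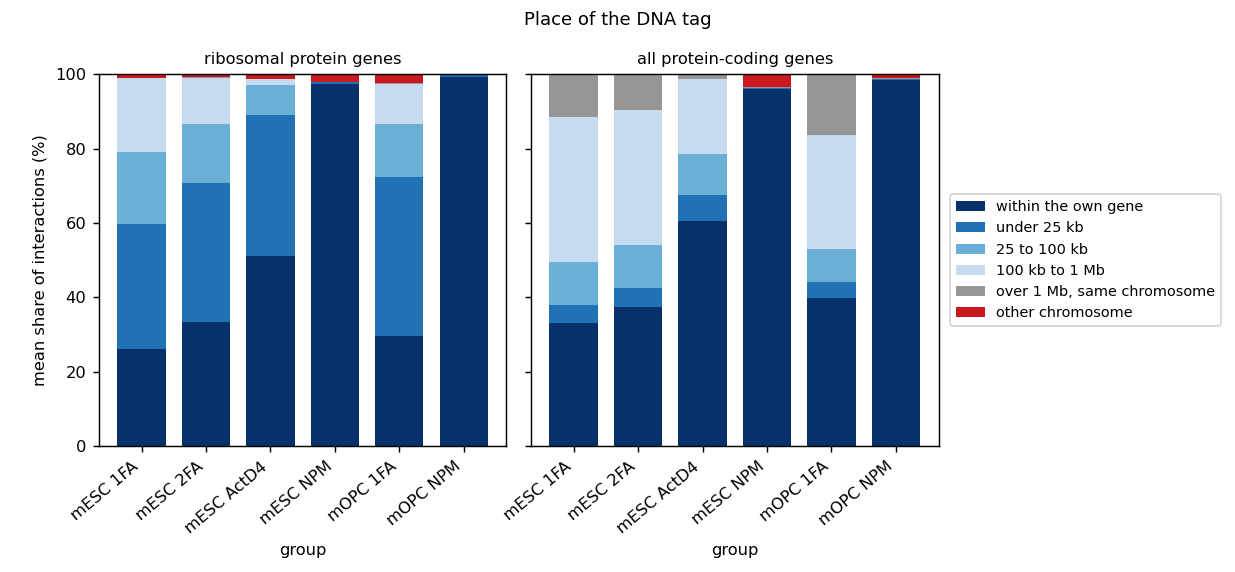
Mean share of interactions (%) by place of the DNA tag relative to the gene of the RNA, in each of the 6 groups, for ribosomal protein genes (left) and for all protein-coding genes (right). Contacts over 1 Mb away are nearly missing for the family, and own-gene contacts reach over 97% in both NPM groups.

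Listed contacts with other chromosomes were few and went to a single place. The paper states that its test removed many contacts of this kind, as they occur less often. Contacts with other places may therefore not have passed. They made up 0.532% to 1.08% of the family's interactions in mESC 1FA, 1.51% to 2.81% in mOPC 1FA, 1.98% and 2.25% in mESC NPM and 0 of 2143 in mOPC NPM. Over all protein-coding genes the share was 0.115% to 0.223% in mESC 1FA, 0.151% to 0.193% in mOPC 1FA, 2.47% and 4.43% in mESC NPM, and 0.802% and 1.03% in mOPC NPM. All 374 such contacts of the family, from 10 genes, fell in 1 bin of 25 kb, with DNA tags between positions 39843024 and 39848814 of chromosome 17, where the annotation places ribosomal RNA sequence. In mESC 1FA Rpl32 gave 44, of which 43 lay within its nested snoRNA, and Rps13 gave 27, all within Snord14a shown above. Rpl23 gave 23, of which 22 lay within 50 bases of a nested snoRNA. Rpl7a gave 18, of which 1 lay that close. In mOPC 1FA Rpl32 gave 51, all from inside the snoRNA, and Rpl7a and Rps13 gave 10 each.

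The piles of tags named above were counted in each group. The window of Rps13 was set by the pile in mESC 1FA and those of Rps12 and Rpl23 by the pile in mESC NPM. That of Rpl12 was set among the groups without protein digestion, with shares of 50.4% in mOPC 1FA, 49.8% in mESC 2FA and 48.4% in mESC 1FA. Levels in the groups that set a window are high by choice, mOPC 1FA included for Rpl12, and the contrasts are a description. The 10 positions of the Rpl12 window held 484 of 1000 interactions in mESC 1FA (53.7%, 49.6% and 43.2% of each library), 357 of 717 in mESC 2FA and 17 of 51 in mESC ActD. In mOPC 1FA they held 59 of 117, and in mESC NPM and mOPC NPM 0 of 46 and 0 of 21. The site was therefore populated in every library without protein digestion and empty in the 4 NPM libraries. The Rps12 site next to Snord100 held 30 of 64 in mESC NPM against 6 of 52 in mESC 1FA, and 14 of 60 in mOPC NPM against 2 of 15 in mOPC 1FA. In mESC 1FA the densest 10 positions of Rps12 lay elsewhere and held 11 of 52. Rpl23 had 29 of 66 at its site in mESC NPM, all within its own gene, and 25 of 398 in mESC 1FA, of which 20 were the contacts with chromosome 17, while in mOPC it held 2 of 35 (NPM) and 0 of 49 (1FA). The Rps13 site held 26 of 68 in mESC 1FA, 12 of 43 in mESC NPM, 9 of 10 in mOPC 1FA and 7 of 21 in mOPC NPM.

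Tags within 50 bases of a nested small RNA made up 3.27% to 4.03% of the family's interactions in mESC 1FA, and 8.02% and 10.9% for mESC NPM. They made up 4.02% to 4.42% in the mOPC 1FA libraries, against 5.41% and 6.89% for mOPC NPM. Each NPM library lay above each 1FA library of its line. Where leaving such tags out ended the call of a gene named below, the value without them is given beside it.

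The next comparisons were fitted gene by gene over all transcripts with enough interactions, with limma on log2 CPM scaled by TMM. The libraries that let a transcript into a comparison could all belong to the same group. Changes are thus relative to the bulk of transcripts, and a gene was called at a Benjamini-Hochberg adjusted p under 0.05 over all transcripts tested. Because the replicates of a group share 1 list of tested pairs, the spread between them is understated.

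The question of the first comparison is how chromatin contacts of these RNAs differ between mOPC and mESC. Of 66 ribosomal protein genes tested, 56 fell in mOPC 1FA and 1 rose, against 77.5% of all 10256 transcripts called, 43% lower and 34.4% higher. A gene could enter this test through mESC 1FA alone, the group where most members were high. Rpl37a did so, with 32, 52 and 62 interactions in mESC 1FA and 2, 1 and 4 in mOPC 1FA. Rpl18 and Rps4x, named below, were among the others that did. The count of falls is therefore partly set by the filter. The median log2 fold change was -2.14 for the family and -0.22 for all transcripts tested. Among other protein-coding genes spanning under 5 kb, 79 of 167 fell and 34 rose, with a median of -0.77. In 63 of the 66 genes every mOPC 1FA library lay below every mESC 1FA library in CPM, against 56.2% of all transcripts tested, and in 5 of the genes that fell (Rpl35, Rps16, Rpl39, Rps23 and Rps26) mOPC 1FA was listed at 0. Of 10 markers chosen for each cell line, 8 mESC markers were tested and all 8 were lower in mOPC 1FA. Of the mOPC markers 7 were tested and all 7 were higher. Most of them passed the filter only through the line where they were high, so their direction was largely set in advance.

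Genes of both subunits fell, with 20 of 25 small-subunit genes lower (median -2.20) and 35 of 39 large-subunit genes lower (median -2.14). Rpl22, an RNA-binding large-subunit protein, had 198, 173 and 182 interactions in mESC 1FA and 13, 9 and 15 in mOPC 1FA, a log2 fold change of -3.05 (SE 0.213). Rps10, near the mRNA entry of the small subunit, had 106, 136 and 160 against 10, 4 and 12, a change of -3.17 (SE 0.383). Rpl3, which reaches the peptidyl transferase centre, had 204, 236 and 254 against 21, 10 and 28, a change of -2.80 (SE 0.332). None of these mOPC 1FA values came near the lowest mESC 1FA value.

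Large falls were also called for Rpl18 (-3.74, SE 1.04), Rpl37a (-3.46, SE 0.442), the X-linked Rps4x (-3.06, SE 0.526) and Rpl6 (-2.86, SE 0.360). Adjusted p for these genes, Rpl22, Rps10 and Rpl3 ran from 3.62e-06 (Rpl22) to 0.0110 (Rpl18) by limma. The Rpl18 value is the least certain, since its mOPC 1FA libraries held 0, 3 and 9 interactions. Rpl18, Rpl37a and Rps4x passed the filter through mESC 1FA alone, which favours a fall. Rps19 fell by 2.20 on the log2 scale (SE 0.195) and Rpl12 by 2.36 (SE 0.351).

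Rps15a stood apart from the family, with a log2 fold change of -0.03 (SE 0.0980, limma adjusted p = 0.810). Its level in CPM was 103 ± 8.23 (SD, n = 3) in mESC 1FA and 70.7 ± 3.59 (n = 3) in mOPC 1FA, which did not overlap, and scaled by library totals the change was -0.54 (adjusted p = 0.00155). Fitted by region, its exon tags rose by 0.66 (SE 0.132, adjusted p = 0.00252) and its intron tags fell by 0.52 (SE 0.128, adjusted p = 0.00590). Rpl38 (-0.17, SE 0.190), Rpl11 (-0.30, SE 0.146) and Rplp0 (-0.36, SE 0.582) were not called either, nor were Rps7, Rps6, Rpl30, Rps12 and Rpl7. Rps3a1 was the gene that rose, by 0.75 (SE 0.220, adjusted p = 0.0140), with 37, 32 and 45 interactions in the mESC 1FA libraries against 35, 29 and 44 in mOPC 1FA. Its libraries overlapped in CPM, and scaled by library totals it was not called (0.24, adjusted p = 0.367).

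**Figure D4:**
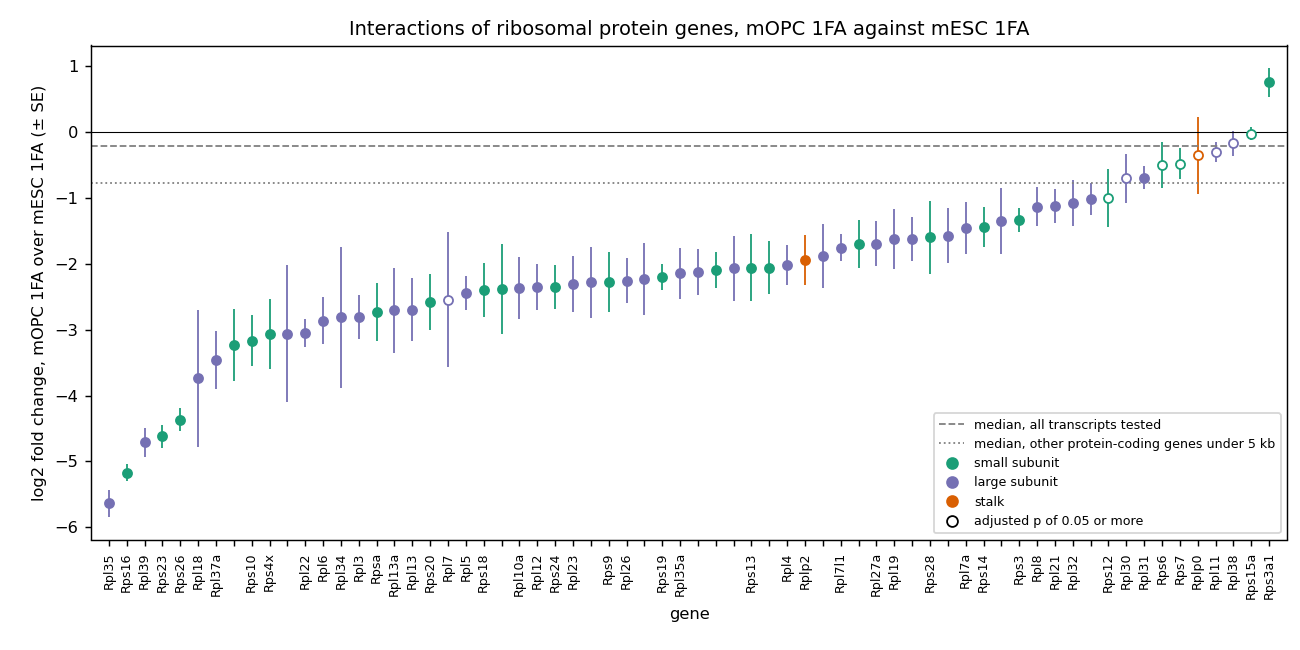
Log2 fold change (± SE) of each of the 66 tested ribosomal protein genes, mOPC 1FA over mESC 1FA, ordered by value, labelled where described in the text and coloured by subunit, with open points for genes not called. The dashed and dotted lines are the medians of all transcripts (-0.22) and of other protein-coding genes under 5 kb (-0.77), and 56 genes fell; the fitted values of the 5 genes with mOPC 1FA at 0 depend on the prior count.

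The fall was seen in exon tags and in intron tags. Of 46 genes tested on exon tags 37 fell and 1 (Rps15a) rose, against 63.8% of all transcripts called, 33% lower and 30.8% higher, with a median of -1.91. Of 43 tested on intron tags 36 fell and 1 (Rps3a1) rose, against 78.2% called, 43.3% lower and 34.8% higher, with a median of -2.27. Restricted to pairs of transcript and bin listed in both groups, 44 of 54 fell and 1 rose, against 62.1% called, 31.2% lower and 30.9% higher, with a median of -1.66.

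Other genes of ribosome making had medians nearer 0. Mitochondrial ribosomal protein genes had 24 of 46 lower and 9 higher (median -0.84). Ribosome biogenesis genes had 18 of 32 lower and 2 higher (median -0.66). Among them Mdn1, an ATPase that remodels the large subunit, fell by 1.29 (limma adjusted p = 8.13e-06), while Ncl, which encodes nucleolin, rose by 0.74 (adjusted p = 0.00130). Of 18 translation factors and further genes with oligopyrimidine tracts, 10 fell and 2 rose (median -0.62). Eef1g, a subunit of elongation factor 1, fell by 1.81 (adjusted p = 1.44e-06), and Eif3h had a change of 0.20 (adjusted p = 0.229).

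The same question was asked of the contacts that remain after protein digestion. In mOPC NPM against mESC NPM, 19 of 51 tested genes fell and none rose, against 51.2% of transcripts called, 20.9% lower and 30.3% higher. An unadjusted p under 0.05 was reached by 25 genes, against 58.1% of transcripts. The median was -0.95 in the family, 0.20 over all transcripts and 0.51 over other protein-coding genes under 5 kb. In 42 of the 51 genes both mOPC NPM libraries lay below both mESC NPM libraries in CPM, against 44.2% of all transcripts tested. Rps24, a small-subunit protein, had 27 and 59 interactions in mESC NPM and 21 and 15 in mOPC NPM, a change of -2.01 (SE 0.346, limma adjusted p = 0.00684). Rps19 had 33 and 71 against 28 and 17, a change of -1.99 (SE 0.354, adjusted p = 0.00759).

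Rpl23, which also binds Mdm2, fell by 1.78 (SE 0.327, adjusted p = 0.00854). Without tags within 50 bases of nested small RNAs its change was -0.84 (adjusted p = 0.189). Falls were called for Rpl26 (-1.66), Rpl3 (-1.56), Rpl22 (-1.22), Rpsa (-1.17) and Rps3 (-1.05), with SEs from 0.254 to 0.446. Without tags near nested small RNAs Rpsa was not called (-0.93, adjusted p = 0.0998). With 2 libraries a group these calls are fragile: 6 and 5 of the 19 were still called without mESC NPM replicate 1 and 2, and 1 and 2 of them without mOPC NPM replicate 1 and 2.

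The second question was whether stronger fixation changes the contacts. None of 68 tested genes was called between mESC 2FA and mESC 1FA, against 0.0301% of 9962 transcripts called. By limma 6 genes had an unadjusted p under 0.05, against 11.5% of transcripts, and with voom weights 0 genes were called. The median log2 fold change was -0.17 in the family and -0.00385 over all transcripts. In CPM 7 of the 68 genes had all mESC 2FA libraries below all mESC 1FA libraries, against 6.33% of all transcripts tested. With the replicate number as a block, which pairs these libraries, 1 gene was called lower, against 4.65% of transcripts called. The family's median ran from -0.30 without mESC 1FA replicate 1 to -0.09 without replicate 3.

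The third question was which contacts last when transcription is blocked. Against mESC 1FA, 16 of 71 tested genes rose and 23 fell in mESC ActD, against 60.8% of 9896 transcripts called, 19.4% higher and 41.4% lower. In 12 of the genes that fell mESC ActD was listed at 0. The family's median was -0.31, the same to the second decimal as that of all transcripts, whereas other protein-coding genes under 5 kb had a median of 1.36, with 136 of 214 higher and 39 lower. Of the 55 tested ribosomal protein genes under 5 kb, 15 rose and 17 fell, with a median of -0.03. The family's median rested on single libraries and on the genes at 0, being -0.06 without mESC 1FA replicate 3, -0.08 without replicate 2, -0.15 without mESC ActD replicate 2 and 0.13 over the 59 tested genes listed in both groups. The mESC ActD libraries had the fewest listed interactions of all groups, and their part in the genes at 0 was not tested.

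Rpl35, a large-subunit protein near the exit tunnel, rose by 1.96 (SE 0.301), with 23, 39 and 34 interactions in mESC 1FA and 21 and 13 in mESC ActD. Rps14, a small-subunit protein known from the 5q- syndrome, rose by 1.29 (SE 0.205), with 95, 122 and 121 against 42 and 32. Of its tags over all libraries, 36.4% lay inside the span of its principal transcript and the rest in longer annotated forms. Counts were lower in mESC ActD, and the rise is one of the share, from 42.8 ± 7.18 to 114 ± 18.9 CPM for Rps14 (SD, n = 3 and 2). Rpl8 (1.56), Rpl13a (1.40), Rpl34 (1.38), Rps9 (1.22) and Rpl7a (0.98) also rose, with limma adjusted p from 0.00420 to 0.0406. Without tags within 50 bases of nested small RNAs Rpl7a was not called (0.94, adjusted p = 0.123), and Rpl13a was near the threshold (1.07, adjusted p = 0.0495).

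Rps20, a small-subunit head protein, fell by 1.84 (SE 0.315), with 86, 102 and 178 interactions in mESC 1FA and 6 and 3 in mESC ActD. Rpl26 fell by 1.58 (SE 0.207) and Rpl5, which is assembled together with Rpl11, by 1.22 (SE 0.175). Rps19 had 28 and 23 interactions in mESC ActD and fell by 1.10 (SE 0.188). Rps15a fell by 1.02 (SE 0.161) and Rpl21 by 1.02 (SE 0.271). Rps4x (31, 46 and 46 interactions in mESC 1FA) was listed at 0 in both mESC ActD libraries, so no fold is given.

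Exon tags and intron tags were also fitted apart after actinomycin D. On exon tags 14 of 50 genes fell and none rose, against 29.4% of transcripts called, 19.7% lower and 9.69% higher, with a median of -0.54. On intron tags 18 of 55 fell and 11 rose, against 53% called, 36.3% lower and 16.7% higher, with a median of -0.12. The difference between the 2 kinds of tag was not tested. Restricted to pairs listed in both groups, 13 of 54 genes fell and 2 (Rps14 and Rpl35) rose, against 22.4% called, 13.1% lower and 9.28% higher. Without mESC 1FA replicate 2, 24 genes were called, 9 higher and 15 lower, against 1334 higher and 3151 lower of 9361 transcripts.

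The fourth question was which contacts do not need proteins. In mESC NPM against mESC 1FA, 8 of 71 genes rose and 22 fell, against 49.5% of 10096 transcripts called, 21.8% higher and 27.7% lower. Scaled by library totals the split was 16 higher and 12 lower, against 4203 and 1326 of the 10096 transcripts, since that scaling moved the median of all transcripts from -0.01 to 0.51. The family's median was -0.16, and that of other protein-coding genes under 5 kb 1.06, with 119 of 230 higher. Of the 55 tested ribosomal protein genes under 5 kb, 7 rose and 12 fell, with a median of 0.04. The family's median did not keep its sign, with 0.00786 without mESC NPM replicate 1 and -0.63 without replicate 2, and it was -0.29, -0.08 and -0.09 without mESC 1FA replicates 1, 2 and 3. Without mESC 1FA replicate 2, 17 genes were called, 4 higher and 13 lower, against 1631 higher and 2085 lower of 9691 transcripts.

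Rps12, a small-subunit protein whose gene hosts Snord100, had the largest rise of the genes called, with 19, 11 and 22 interactions in mESC 1FA and 29 and 35 in mESC NPM, a change of 2.72 (SE 0.341). It rose by 2.21 without the tags within 50 bases of nested small RNAs, Rps13 by 1.48 and Rpl7a by 1.15, while Rps3a1 was not called without them (0.69, adjusted p = 0.0661). Rpl8 (1.85, SE 0.263), Rps13 (1.67, SE 0.331), Rpl7a (1.23, SE 0.348), Rpl10a (1.20, SE 0.394), Rpl4 (1.02, SE 0.260) and Rps3a1 (0.75, SE 0.280) also rose. Rpl8 had 40, 31 and 53 interactions in mESC 1FA and 39 and 44 in mESC NPM.

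Rpl12 fell by 2.01 (SE 0.189), with 20 and 26 interactions in mESC NPM, and its site described above was empty there. Rpl11, which is assembled with Rpl5, fell by 1.85 (SE 0.358), Rpl38 by 1.49 (SE 0.237), Rps10 by 1.47 (SE 0.313), Rps15a by 1.36 (SE 0.173), Rps19 by 1.24 (SE 0.210) and Rpl18 by 1.24 (SE 0.314). The Rpl18 call was lost when scaled by library totals (-0.72, adjusted p = 0.0789). Rpl37a was listed at 0 in mESC NPM, with 32, 52 and 62 interactions in mESC 1FA. On exon tags 27 of 50 genes fell and 4 rose, against 40.9% of transcripts called, 23.3% lower and 17.6% higher. On intron tags 11 of 55 fell and 6 rose, against 36.1%, 22% lower and 14% higher.

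In mOPC NPM against mOPC 1FA, 12 of 47 tested genes rose and 7 fell, against 55.5% of 10419 transcripts called, 28.9% higher and 26.6% lower. Scaled by library totals 27 rose and 1 fell, against 6157 higher and 757 lower of the 10419 transcripts, as that scaling moved the median of all transcripts from 0.17 to 0.95. The family's median was 0.82 (0.51 without mOPC 1FA replicate 2) and that of other protein-coding genes under 5 kb 1.97. Rpl4, which lines the exit tunnel, counted 12, 6 and 11 interactions in the mOPC 1FA libraries against 41 and 35 for mOPC NPM, a rise of 1.95 (SE 0.372, limma adjusted p = 0.00401). Rpl35a had 7, 7 and 17 against 41 and 34, a rise of 1.91 (SE 0.461, adjusted p = 0.0111). Rpl8 rose by 1.66 (SE 0.438) and Rpl22 by 1.58 (SE 0.352).

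On exon tags 6 of 25 genes rose and 9 fell, against 39.8% of transcripts called, 18.5% higher and 21.3% lower, with a median of -0.05. On intron tags 7 of 24 rose and 1 fell, against 47.1% called, 23.9% higher and 23.2% lower. Without own-gene contacts 15 of 16 genes fell, against 4436 lower and 314 higher of 6390 transcripts, and the median of all transcripts was then -4.82. Own-gene contacts made up 98.4% of protein-coding interactions in mOPC NPM, so leaving them out lowers that group for nearly every gene.

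Rps15a fell by 1.49 (SE 0.143) and Rpl12 by 1.75 (SE 0.463) in mOPC NPM, and scaled by library totals the Rpl12 call was lost (-0.98, adjusted p = 0.114). Rpl10, a late-joining large-subunit protein, had 13 and 14 interactions in mOPC NPM and was listed at 0 in mOPC 1FA. These counts depended on single libraries. Without mOPC 1FA replicate 3, 25 genes rose and 5 fell, against 3250 and 2722 of 10315 transcripts. Without mOPC NPM replicate 1, 2 genes were called, against 2810 of 10497 transcripts, and without replicate 2, 3 genes, against 3462 of 10850.

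**Figure D5:**
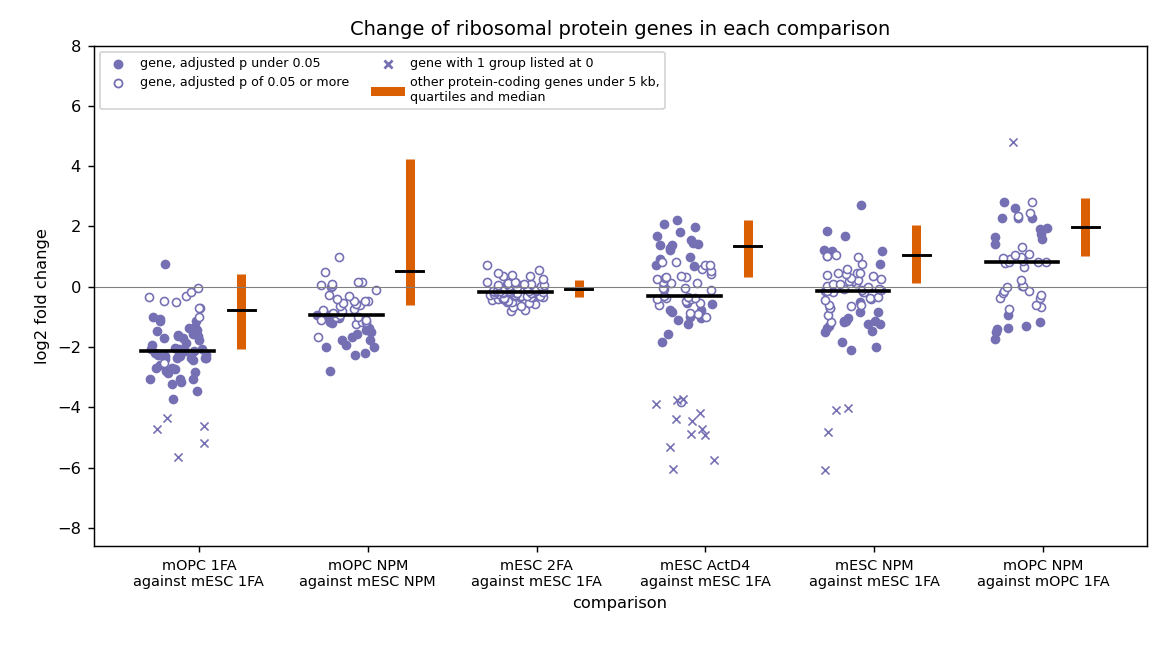
Log2 fold change of each tested ribosomal protein gene (points) in 6 comparisons, filled where called, open where not and crossed where 1 group was listed at 0, with the family's median as a black line. The orange bars span the quartiles of other protein-coding genes under 5 kb, whose median lies above the family's in all 6 comparisons.

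Comparisons that share control libraries are not independent, and their values are set side by side here only for genes named in more than 1 of them. Rpl8 had changes of 1.56 in mESC ActD, 1.85 in mESC NPM and 1.66 in mOPC NPM. Rps15a had changes of -1.02, -1.36 and -1.49, and Rpl12 fell in both NPM comparisons. Whether the effect of protein digestion differed between the cell lines was tested as an interaction. It was called for 12 of 72 genes, 9 higher and 3 lower in mOPC, against 33% of 12213 transcripts called, 22.8% higher and 10.3% lower. In 7 of the 12 genes 1 or more of the 4 groups was listed at 0.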

How the data were processed

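RADICL-seq libraries (2 to 3 per group, 15 in 32 database entries for the RNA and DNA tags) were read from the tables that the authors deposited, 1 line per interaction. Per the submitters' processing notes and the methods, base calling used CASAVA 1.8, tags were mapped to mm10 with BWA 0.7.15-r1140, PCR duplicates were collapsed, rRNA was removed, and RNA tags were assigned by strand to genes of an earlier GENCODE release than the one used here for symbols, spans and principal transcripts (M21). The columns the authors deposited as other kinds of value (position, strand, gene identifier, biotype, region and 25-kb bin of each tag) were used as given. The p-values and adjusted p-values deposited by the authors are those of their one-sided binomial test of each pair of transcript and bin, on pooled replicates, which decided the listing, and were not otherwise used. Short tags from sequence with several genomic copies were lost at mapping, which lowers exon counts of these genes.

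Interactions, as distinct combinations of RNA position, gene and DNA position, were counted per transcript and library with Python 3.11.15, pandas 2.3.3 and numpy 2.4.6. Transcripts with at least 10 interactions in as many libraries as the smaller group holds and 15 in total were tested with limma 3.58.1 (R 4.3.3, trend, two-sided) on log2 CPM with TMM factors and a prior count of 0.5, over the groups compared, with Benjamini-Hochberg adjustment over all transcripts. The script was tested on simulated data with libraries drawn independently, unlike the replicates here. A log2 change of 1 was recovered in 70% of cases between the cell lines and 66% in mESC 2FA. It was recovered in 54% for mOPC NPM against mOPC 1FA and 37% in mESC NPM. The lowest values were 21% for mOPC NPM against mESC NPM and 20% in mESC ActD. A gene not called there may still have changed. Sums over genes received no test. Principal transcripts followed APPRIS tags of the annotation, and sequences came from RefSeq GRCm38.p6. Samples were grouped by their titles, and the markers were Pou5f1, Nanog, Klf4, Esrrb, Zfp42, Tdgf1, Tfcp2l1 and Fgf4 for mESC, and Cspg4, Olig2, Sox10, Ptprz1, Lhfpl3, Vcan and Bcan for mOPC (those tested).

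Members and lists were chosen with earlier results of these data known. Named genes were the 10 with most interactions in mESC 1FA and mOPC 1FA, in sum and per kb, up to 8 rises and 8 falls per comparison among called genes with at least 20 interactions per library on average and groups that did not overlap, paralogs, snoRNA hosts, the stalk genes, Rpsa, and the leading genes of related lists. Genes not called, the only gene that rose in mOPC, genes with tag piles or contacts between chromosomes, and genes at 0 in 1 group were named after their values were seen. A few genes that this rule names are not reported here.

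Replicate numbers paired mESC 2FA with mESC 1FA, where deviations of same-numbered libraries correlated at 0.336, 0.166 and 0.310 over transcripts. In the other comparisons at least 1 pair lay below 0.1, so pairing could not be established there. Low values do not exclude it, and in mOPC NPM against mOPC 1FA the pairs gave -0.0658 and 0.160. Alternatives were scaling by totals, no filter, a prior count of 2, voom weights, 1 fit over all libraries, a replicate block, contact and tag subsets, and leaving out each replicate.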

Additional observations from a re-analysis of the deposited data

Results flagged for a closer look

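The effect of protein digestion before ligation differed between the cell lines for 12 of 72 ribosomal protein genes by the interaction term of limma (mOPC effect minus mESC effect, log2 scale, adjusted over all transcripts tested), against 33% of all transcripts. The values of 5 are given, being those listed in each of mESC 1FA, mESC NPM, mOPC 1FA and mOPC NPM. Rpl22 differed by 1.67 (SE 0.336, adjusted p = 0.00362), with 198, 173 and 182 interactions for mESC 1FA, 36 and 64 for mESC NPM, 13, 9 and 15 for mOPC 1FA, and 47 and 30 for mOPC NPM. Rpl35a differed by 2.07 (SE 0.546, adjusted p = 0.0151), Rpl6 by 1.95 (SE 0.533, adjusted p = 0.0182) and Rps20 by 1.94 (SE 0.641, adjusted p = 0.0416). Rps3a1 went the other way, by -1.17 (SE 0.340, adjusted p = 0.0242), with 37, 32 and 45 interactions for mESC 1FA, 17 and 19 for mESC NPM, 35, 29 and 44 for mOPC 1FA, and 25 and 30 for mOPC NPM. Restricted to pairs of transcript and bin listed in all 4 groups, 43 of 8474 transcripts were called and none of the 5 was among them, with differences of 0.72 (Rpl22), 1.55 (Rpl35a), 1.25 (Rpl6), 1.89 (Rps20) and -0.92 (Rps3a1). None of the 12 calls was kept with own-gene contacts alone, where the family's median difference was 0.66 against 0.72 with all contacts.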

How the results depend on the processing

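With each pair of transcript and bin counted once, 21 of 24 testable ribosomal protein genes were called between mOPC 1FA and mESC 1FA (5984 of 6282 transcripts), 22 of 24 in mESC 2FA (4354 of 5660), 24 of 27 in mESC ActD (5254 of 5673), 26 of 27 in mESC NPM (5303 of 5672), 1 of 1 in mOPC NPM against mOPC 1FA (3941 of 4135) and 25 of 27 in the interaction (5991 of 6430), but that fit has almost no spread between replicates, since they share 1 list of pairs. With own-gene contacts alone, 29 of 32 were called between the cell lines (5443 of 8245 transcripts), 11 of 46 in mESC ActD (3102 of 8037), 15 of 53 in mESC NPM (3445 of 8819), 9 of 43 in mOPC NPM against mOPC 1FA (3656 of 10029) and 3 of 56 in the interaction (2148 of 11380), none of them among its 12 calls above. With only pairs listed in every group compared, 15 of 54 were called in mESC ActD, 19 of 64 in mESC NPM (2426 of 8711 transcripts), 5 of 43 in mOPC NPM against mOPC 1FA (2395 of 9316) and 0 of 53 in the interaction (43 of 8474), where the family's median was 0.57 against 0.72. These 2 settings, and the one without tags within 50 bases of nested small RNAs, were chosen after seeing the data, as was leaving out Rps15a from the shares of exonic, mature exon and 3′ UTR tags. The last kept 56 of 57 calls between the cell lines, 35 of 39 in mESC ActD, 29 of 30 in mESC NPM, and 15 of 19 in each comparison with mOPC NPM. Without own-gene contacts, 59 of 66 were called in mESC NPM (6017 of 8069 transcripts), 23 of 66 in the interaction (5065 of 9234) and 1 of 63 in mESC 2FA (47 of 8044). In mESC NPM that setting moved the median of all transcripts to -4.59, and Rps3a1 (-5.22), Rpl10a (-4.96) and Rpl8 (-1.82) changed direction. For mOPC NPM against mESC NPM, that setting and single pairs left no ribosomal protein gene to test. Scaling by totals gave 29 calls there (5922 of 11043 transcripts) and no filter 31 of 73 (9246 of 15793), and no filter gave 3 of 81 in mESC 2FA (2081 of 15445).

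With the replicate block, 32 were called in mOPC NPM against mOPC 1FA (26 higher, 6 lower; 3552 and 2957 of 10419 transcripts) and 1 in mESC 2FA (463 of 9962). Elsewhere the block gave 59 (cell lines, 7956 transcripts), 32 (mESC ActD, 5113), 28 (mESC NPM, 4251), 26 (mOPC NPM against mESC NPM, 5964) and 17 (interaction, 3043), against 57, 39, 30, 19 and 12 without it. Leaving out each replicate gave 51 to 65 calls between the cell lines (7681 to 8281 transcripts), 0 to 0 in mESC 2FA (0 to 3), 24 to 51 in mESC ActD (4328 to 7216), 17 to 32 in mESC NPM (3716 to 5385), 2 to 30 in mOPC NPM against mOPC 1FA (2810 to 5972), 3 to 7 in mOPC NPM against mESC NPM (2916 to 4787) and 8 to 23 in the interaction (3328 to 4790), the last being 8 without mESC 1FA replicate 2 and 23 without mOPC 1FA replicate 3. The next values cover only the up to 8 rises and 8 falls named per comparison, chosen as called and with groups apart. That choice favours calls that last, and the rise of Rps3a1 between the cell lines is not covered. Direction and call were kept in 137 of 138 values between the cell lines, 230 of 261 in mESC ActD and 212 of 244 in mESC NPM. They were kept in 74 of 93 in mOPC NPM against mOPC 1FA and 83 of 112 in mOPC NPM against mESC NPM. Where not stated, the cause was not tested.

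Counting each pair once, the family's share of interactions was 0.182% in mESC 2FA, 0.235% in mESC ActD, 0.0722% in mOPC 1FA and 0.152% in mOPC NPM, its exonic share 52.1% in mOPC NPM, its own-gene share 11.9% in mESC 1FA, 16.5% in mESC 2FA, 40.1% in mESC ActD, 87.7% in mESC NPM and 92.0% in mOPC NPM, and its share between chromosomes 2.07% in mESC ActD and 7.41% in mESC NPM. Without the leading gene of the group, the share of interactions was 0.175% in mESC 2FA, 0.194% in mESC ActD and 0.0826% in mOPC NPM, the exonic share 48.0% in mESC 1FA, 47.2% in mESC 2FA and 52.6% in mOPC NPM, the own-gene share 97.8% in mESC NPM, and the share between chromosomes 1.45% in mESC ActD and 1.71% in mESC NPM. Without tags in nested small RNA genes, the share of interactions was 0.203% in mESC ActD, the exonic share 50.8% in mESC 1FA and 53.2% in mOPC NPM, and the own-gene share 97.7% in mESC NPM. The share between chromosomes then fell to 0.407% in mESC 1FA, 0.306% in mESC 2FA, 0.157% in mESC ActD, 1.84% in mESC NPM and 0.332% in mOPC 1FA.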
